A study of Mus musculus with 2 samples.

Results

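Interferon-responding T cells of the mouse lung are described here. They were chosen by their own RNA. A cell barcode of either library was taken as a T cell if it had at least 500 detected genes, under 10% mitochondrial UMIs (unique molecular identifiers, each standing for 1 captured RNA molecule), at least 2 UMIs of the T cell receptor genes Cd3d, Cd3e and Cd3g together, no UMI of the macrophage gene Lyz2 and fewer than 2 UMIs of the cycling genes Mki67 and Top2a. It was then a member if it had a UMI of at least 3 of the 6 interferon-stimulated genes Ifit1, Ifit3, Ifit3b, Rsad2, Usp18 and Isg20. In all, 469 of 12537 barcodes were members: 173 of 4195 gated T cells of the control library and 296 of 3990 of the other.

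The study profiled lung CD4+ cells of mice with allergic airway inflammation by droplet single-cell RNA sequencing, to look for pathways under NRF2, the transcription factor encoded by Nfe2l2. The control group is 1 library labelled Nfe2l2fl/fl, with loxP-flanked Nfe2l2 and no Cre named in its label. The other is 1 library labelled Cd4cre Nfe2l2fl/fl, in which Cre recombinase is under Cd4 regulatory sequences and can act in every cell that has used them, regulatory T cells included. Mice of both groups were 8 to 15 weeks old and lungs were collected 16 h after dosing of the airways ended. Their labels name neither which of their airway models was used for these libraries nor how many mice went into each. With 1 library per group no test was made, every interval covers counting error only, and a difference between the libraries cannot be told apart from a difference between mice or preparations.

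Interferons are secreted warning signals. Type I interferons (the alpha family and beta) bind the receptor pair IFNAR1 and IFNAR2, and the kinases JAK1 and TYK2 then switch on a transcription factor complex, with STAT2 and IRF9 among its parts, that binds the interferon-stimulated response element, while interferon gamma uses a receptor of its own. The genes so switched on encode sensors of foreign nucleic acid, enzymes that block virus replication, GTPases that attack intracellular vacuoles, and the machinery that loads peptides on MHC class I. T cells are both a source of interferon gamma and a target of type I interferons, and a small fraction of lung T cells with this programme is often seen in single-cell data.

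The response element's letters can be read directly before the start of several of these genes, and are shown because 4 of the 6 rule genes hold them. Each line is the strand of the gene, 5′ to 3′, from RefSeq promoters of build GRCm38.p6, with every match to GAAA, any 2 bases, then GAAA (or the same letters on the opposite strand, where they read TTTC, any 2 bases, then TTTC) in capitals. The first 4 are rule genes, Isg15 and Gbp2 are listed interferon genes outside the rule, and Slc25a22 lies outside the interferon lists.
Ifit1: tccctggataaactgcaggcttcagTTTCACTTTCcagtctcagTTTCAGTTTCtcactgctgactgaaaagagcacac
Ifit3: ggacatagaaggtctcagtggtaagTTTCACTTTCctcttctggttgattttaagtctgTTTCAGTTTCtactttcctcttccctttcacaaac
Ifit3b: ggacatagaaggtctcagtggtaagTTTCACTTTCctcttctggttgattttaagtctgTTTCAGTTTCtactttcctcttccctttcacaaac
Rsad2: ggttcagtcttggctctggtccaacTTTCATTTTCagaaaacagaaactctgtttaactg
Isg15: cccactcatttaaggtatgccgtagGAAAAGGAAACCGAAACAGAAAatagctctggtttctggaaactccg
Gbp2: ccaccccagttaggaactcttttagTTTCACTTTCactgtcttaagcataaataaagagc
Slc25a22: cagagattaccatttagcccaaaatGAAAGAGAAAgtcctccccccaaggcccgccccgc
The Ifit1 stretch is chr19:34640760-34640838 on the plus strand, with its 2 matches starting 104 and 85 bases before the RefSeq start. That start is not the start of the Ifit1 span given below. The Ifit3 stretch, chr19:34583348-34583441, and the Ifit3b stretch, chr19:34607744-34607837, both on the plus strand, are the same in all 94 bases. Rsad2 is shown from chr12:26456538-26456597 (minus strand), Isg15 from chr4:156200850-156200921 (minus), Gbp2 from chr3:142620579-142620638 (plus) and Slc25a22, at 1 of its 3 listed starts, from chr7:141435420-141435479 (minus). Isg15 holds 3 overlapping matches, the nearest 66 bases before its RefSeq start.

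In the 250 bases before the start, such a match was found for 3.46% of the 27025 genes in the RefSeq table and for 3.40% of the 7217 measured genes with an entry. It was found for 4 of the 5 rule genes with an entry, the exception being Isg20; Usp18 had none in the table. Among interferon genes outside the rule, 46 of 126 genes (36.5%) held it, with 10 of 11 guanylate-binding proteins and immunity-related GTPases at the top and 3 of 16 genes of MHC class I presentation at the bottom. Of the genes at least 2-fold higher in members, 42 of 136 (30.9%) held it, and 9 of the 60 (15.0%) that are on no interferon list did. Only stretches with a match are shown above. Irf7 and Cmpk2, both described below, held no match in these 250 bases, nor did the other listed starts of Slc25a22. A match is a description of letters and does not show that a factor binds there.

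All 6 rule genes took a larger share of UMIs in members because the rule asks for them, and their values are given as a description. Levels are given in CPM, counts-per-million, a gene's share of all UMIs summed over the cells of a class. Ifit1, whose protein binds foreign RNA caps, was at 543 CPM in control members (interval 503 to 584) and 685 in Cd4cre members (648 to 723), against 10.8 and 19.4 CPM in the other T cells. Ifit3, its binding partner, was at 250 and 386 CPM against 2.30 and 6.72. Rsad2, which encodes viperin, an enzyme that makes a chain-terminating nucleotide, was at 191 and 207 CPM against 2.51 and 4.39. Usp18, a protease that removes ISG15 from proteins and damps the type I receptor, was at 190 and 219 CPM against 5.82 and 8.12. Isg20, an RNA exonuclease, was at 668 and 649 CPM, but also at 72.8 and 102 CPM in the other T cells, and 29.5% and 34.1% of those cells had a UMI of it. Ifit3b was at 63.6 and 104 CPM against 0.216 and 0.966. Ifit3 and Ifit3b are near copies, so how their reads were divided is uncertain. In GRCm38 the 3 Ifit genes lie together at chr19:34640871-34650009 (Ifit1), chr19:34583531-34588731 (Ifit3) and chr19:34607970-34613401 (Ifit3b), Rsad2 lies at chr12:26442746-26456452, Usp18 at chr6:121245906-121270917 and Isg20 at chr7:78913424-78920396.

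Membership was graded rather than sharp. Of the control T cells, 2610 had none of the 6 genes, 1189 had 1, 223 had 2, 77 had 3, 55 had 4, 26 had 5 and 15 had all 6. In the Cd4cre library these numbers were 2117, 1236, 341, 128, 76, 55 and 37. Antiviral effector genes outside the rule took a median of 1.90% and 1.96% of a cell's UMIs just below the threshold, at 2 rule genes, and 2.64% and 2.51% just above it, at 3. At none of the rule genes the medians were 0.798% and 0.920%, and at all 6 they were 5.16% and 5.09%. Isg15 was at 83.7 and 107 CPM at none of the rule genes, 668 and 615 at 2, 1235 and 1136 at 3, and 4373 and 3346 at all 6. The plot of effector share against the number of rule genes shows no step at the threshold. Among the other T cells, 75 (1.87%) of the control and 114 (3.09%) of the Cd4cre library had an effector share above the members' own median.

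**Figure D1:**
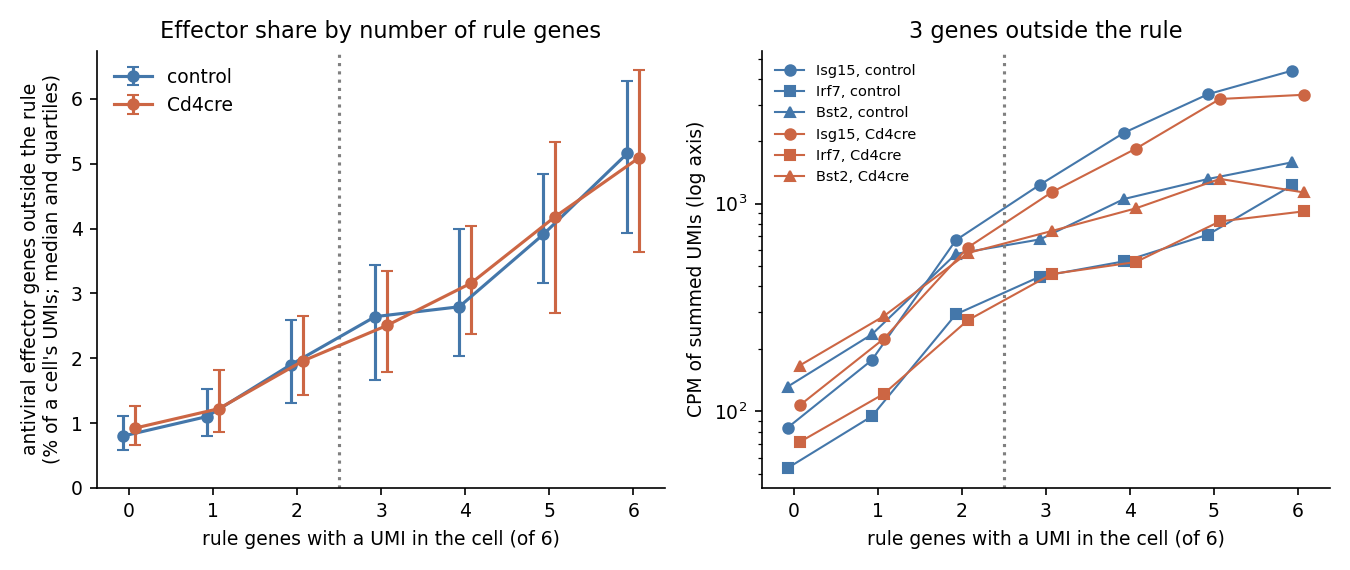
Left, share of each gated T cell's UMIs in antiviral effector genes outside the rule (percent; points are medians, bars quartiles) by the number of the 6 rule genes with a UMI, in control (blue) and Cd4cre (orange) cells; right, CPM of Isg15, Irf7 and Bst2 on a log axis for the same classes. The dotted line, between 2 and 3 genes, marks the membership threshold, and both panels climb through it, with effector medians of 1.90% and 1.96% at 2 genes and 2.64% and 2.51% at 3.

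T cell markers were checked first. Cd3e was at 1247 and 1185 CPM in members and 1264 and 1220 in the others, Trac, the constant part of the receptor alpha chain, at 339 and 326 against 340 and 332, and Cd4 at 260 and 347 against 282 and 366. Depth was alike too, with a median of 6124 and 5462 UMIs per member and 6079 and 5412.5 per other T cell, and mitochondrial medians of 1.85% and 1.79% against 2.09% and 2.02%. The summed level of the 4 CD8 T cell markers was higher in members, at 76.0 and 136 CPM against 33.7 and 74.1, all detected. Klrk1 among them was not higher in control members, at 2.33 and 14.5 CPM against 2.41 and 7.29. Cd8a was at 5.43 and 6.72 CPM against 1.51 and 1.36, Cd8b1 at 22.5 and 41.4 against 13.8 and 17.2, and Gzmk at 45.7 and 73.4 against 15.98 and 48.3; their part in the results was not tested. Of the 8 macrophage markers, 4 were at 0 in control members and 2 in Cd4cre members, Lyz2 among them by the rule and the others rare in all T cells. The list's summed level of 373 and 346 CPM (others 201 and 192) was mostly Ctss, a cysteine protease gene at 331 and 310 CPM against 161 and 167. The 6 plasmacytoid dendritic cell markers summed to 1061 and 997 CPM against 222 and 292, of which Bst2, itself an interferon gene, made up 973 and 957 against 189 and 249. Of the rest, Cox6a2 was at 34.9 and 3.10 CPM against 6.36 and 10.4, Tcf4 at 19.4 and 10.3 against 6.39 and 8.08, and the defining Siglech at 13.95 and 11.4 against 5.89 and 8.12, so they were higher chiefly in control members. The 8 conventional dendritic cell markers summed to 293 and 265 CPM against 161 and 246, mostly Cd74 at 253 and 234 against 139 and 207, with 3 of the 8 at 0 in the members of each library. The B cell markers together were at 2.33 and 7.76 CPM, with the defining Ms4a1 at 0. The 4 endothelial markers summed to 62.0 and 95.1 CPM against 42.9 and 35.4, and Cldn5 among them was at 10.9 and 22.8 against 4.92 and 1.19. Without 2 small clusters led by MHC class II genes and by stromal genes, the difference in member share between the libraries was 3.24 points and 162 genes were at least 2-fold higher. The libraries share 49 barcodes, 4 members carry one of them, and 1 shared barcode is a member in both.

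Members made up 4.12% of gated T cells in the control library (interval 3.54 to 4.77) and 7.42% in the Cd4cre library (6.62 to 8.28), a difference of 3.30 points (2.29 to 4.32). A share of cells with a UMI grows with depth. After each cell was thinned to 2000 UMIs, leaving out 88 and 99 shallower cells, the shares were 1.83% and 3.55% and the difference 1.72 points (1.02 to 2.45). The Cd4cre share was higher on both readings. Median depth of the gated T cells was 6081 UMIs in the control and 5421.5 in the Cd4cre library, and its part in the difference was not tested. With the libraries standardised to the same lineage shares the difference was 2.73 points. If Isg20, the least selective rule gene, is left out and 3 of the other 5 are asked for, the difference is 2.03 points (1.24 to 2.84).

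Genes outside the rule were compared between members and the other gated T cells of the same library. Because the members were selected on genes of the same pathway in the same cells, these ratios describe the members and are no independent test of their label. Of 9084 measured genes, 171 (1.88%) were at least 2-fold higher in members in both libraries and 35 (0.385%) at least 2-fold lower. Among the 135 measured genes of the 6 interferon lists, 93 were at least 2-fold higher in both and none was 2-fold lower. Their median log2 ratio was 1.84 in the control and 1.62 in the Cd4cre library, while the median over all measured genes was -0.10 and -0.07. With the other T cells weighted to the members' helper lineages and depth, the medians were 1.76 and 1.51.

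**Figure D2:**
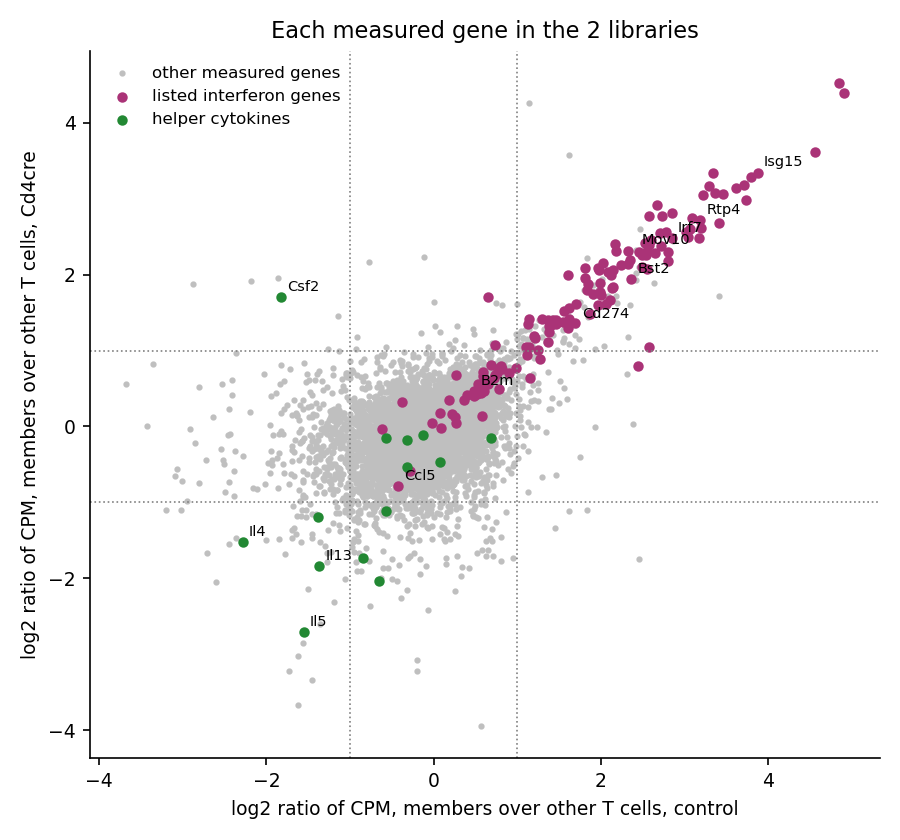
Log2 ratio of CPM, members over other T cells, for each measured gene in the control library (horizontal) and the Cd4cre library (vertical); listed interferon genes are purple, helper cytokines green, dotted lines mark 2-fold. The interferon genes run along the diagonal in the upper right, with Isg15 at 3.88 and 3.35, while Il4, Il5 and Il13 lie in the lower left; genes without a UMI in a class are not drawn.

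The sensors of foreign nucleic acid were high as a class, 10 of 14 measured genes reaching 2-fold in both libraries and all 14 lying above the other T cells, with median log2 ratios of 2.41 and 2.31. Oasl2, of the oligoadenylate synthetase family, was at 60.5 and 73.9 CPM in members and 2.55 and 6.06 in the others, a log2 ratio of 4.57 (4.08 to 5.05) and 3.61 (3.26 to 3.96). Zbp1, which recognises Z-form nucleic acid and can start necroptosis, was at 543 and 519 CPM against 96.5 and 122. Ddx58, encoding RIG-I, was at 118 and 148 CPM against 26.0 and 29.7, and Ifih1, its companion receptor for long double-stranded RNA, at 79.8 and 97.2 against 12.03 and 14.3. Eif2ak2, the kinase PKR that stops translation, was at 79.8 and 88.9 CPM against 15.95 and 17.9. Tmem173, which encodes STING, the adaptor of DNA sensing, stood apart from these with 101 and 91.0 CPM against 86.2 and 81.5, log2 ratios of 0.22 and 0.16.

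Of 16 genes of signal transduction, 9 were at least 2-fold higher in both libraries. Irf7, the factor that amplifies type I interferon production, was at 575 and 607 CPM against 79.8 and 109, log2 ratios of 2.85 (2.73 to 2.97) and 2.48 (2.38 to 2.58). Stat2 and Irf9, components of the type I complex, had ratios of 1.90 and 1.75, and of 1.11 and 1.05. Jak1, the kinase at the receptor, was nearly level, at 268 and 313 CPM against 254 and 277. The feedback inhibitor Socs1 was at 209 and 184 CPM against 138 and 132, a smaller difference than that of Usp18. Irf1, an early interferon-induced factor, was at 197 and 239 CPM against 133 and 176, and Socs3, another feedback inhibitor, at 229 and 276 against 202 and 217, both also under 2-fold. None of the 5 measured receptor genes reached 2-fold. Ifnar1 was at 109 and 134 CPM against 76.6 and 85.9, with log2 ratios of 0.51 (0.26 to 0.76) and 0.65 (0.45 to 0.83), and Ifnar2 at 76.0 and 73.4 against 57.7 and 63.7. The 2 chains of the interferon gamma receptor differed. Ifngr1 was at 539 and 686 CPM against 407 and 538, log2 ratios of 0.40 (0.29 to 0.51) and 0.35 (0.27 to 0.43). For Ifngr2, the ratios were -0.73 (-1.33 to -0.19) and -0.13 (-0.54 to 0.26).

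Antiviral effectors were the largest class, and 54 of 69 measured genes were at least 2-fold higher in both libraries, with medians of 2.06 and 1.77. Ifit1bl1, a gene of the Ifit family, had the highest ratios of the list in the control library, 4.91 (4.45 to 5.38) and 4.39 (4.04 to 4.75) in the other, and may share reads with its relatives. Cmpk2, a mitochondrial nucleotide kinase gene next to Rsad2, was at 140 and 140 CPM in members and 4.85 and 6.06 in the others. Isg15, a ubiquitin-like modifier, was at 2134 and 2007 CPM against 145 and 198, log2 ratios of 3.88 (3.81 to 3.94) and 3.35 (3.28 to 3.41). Bst2, which encodes tetherin and holds budding virions on the cell surface, was at 973 and 957 CPM against 189 and 249. Samhd1, which depletes deoxynucleotides, was at 1006 and 1101 CPM against 227 and 265. Slfn5, a Schlafen family gene, was at 225 and 247 CPM against 22.1 and 24.3. Ifi27l2a was at 6115 and 8330 CPM against 1995 and 3109, so it was abundant in the other T cells too. The list was not uniform, since Ifi27 had ratios of -0.29 and -0.59 and Ifitm2 of -0.62 and -0.03.

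All 14 measured guanylate-binding proteins and immunity-related GTPases were at least 2-fold higher in both libraries, with medians of 2.19 and 2.07. Gbp2 was at 304 and 321 CPM against 35.8 and 48.0, Ifi47 at 460 and 503 against 97.5 and 115, and Iigp1, which damages parasite vacuoles, at 69.8 and 85.3 against 6.54 and 13.4. Genes of MHC class I presentation differed less, but all 20 were above the other T cells in both libraries, 5 of them at least 2-fold, with medians of 0.67 and 0.69. H2-K1 was at 3934 and 4832 CPM against 2993 and 3624, log2 ratios of 0.39 (0.35 to 0.44) and 0.42 (0.38 to 0.45). B2m, the shared light chain, was at 2851 and 3448 CPM against 2041 and 2502. Tap1, a subunit of the peptide pump, was at 371 and 363 CPM against 157 and 180, and the non-classical gene H2-T22 at 720 and 820 against 276 and 328. Class I genes are near copies of each other, so the division of reads among H2 genes is uncertain.

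**Figure D3:**
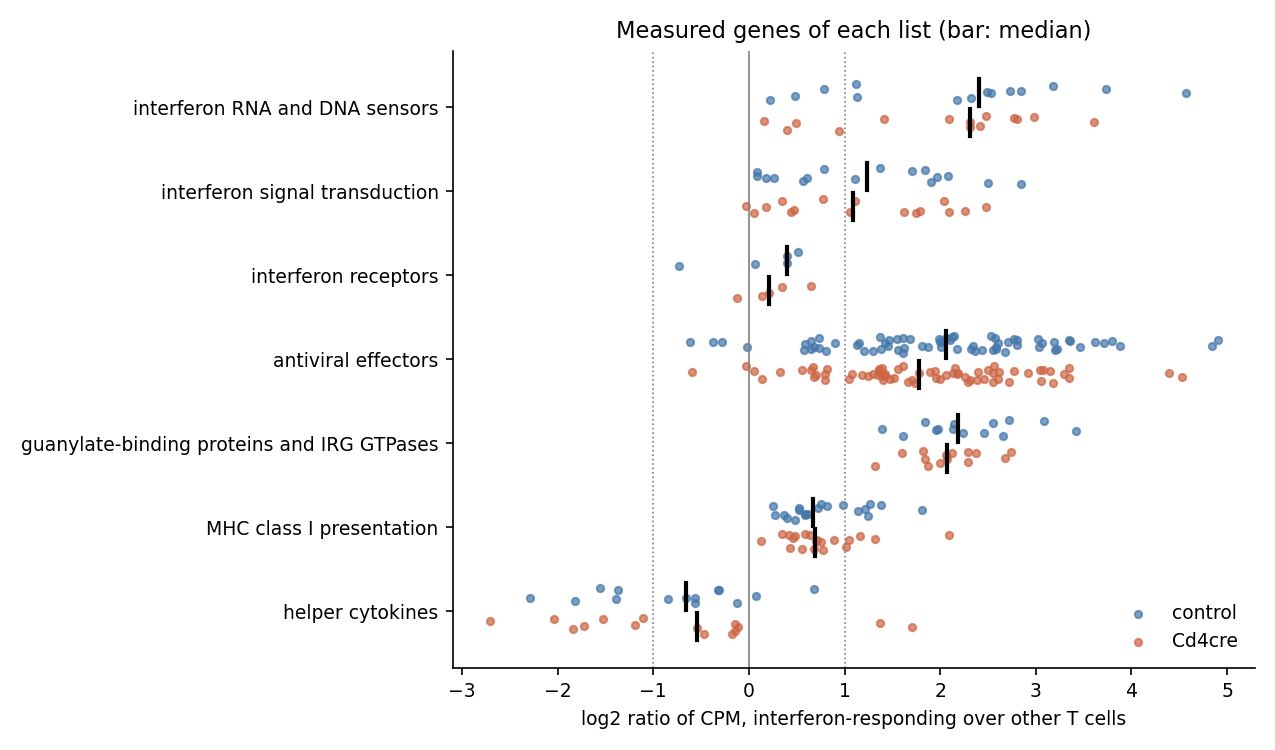
Log2 ratio of CPM, members over other T cells, for every measured gene of 7 lists in the control (blue) and Cd4cre (orange) library, with the 6 rule genes left out; black bars are medians, dotted lines mark 2-fold, and Il22, with no UMI in control members, is not drawn there. The guanylate-binding and immunity-related GTPase genes all lie beyond 2-fold, class I genes lie between 0 and about 2, receptors lie near 0, and helper cytokines lie mostly below 0.

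Cxcl10, a chemokine that draws in CXCR3-bearing T cells, was at 312 and 464 CPM in members and 31.7 and 51.6 in the others, log2 ratios of 3.30 (3.12 to 3.47) and 3.17 (3.04 to 3.29). Ccl5, the other measured chemokine of the list, was lower in members, at 290 and 1316 CPM against 388 and 2268. More members than other T cells held a Ccl5 UMI, however, 26.6% against 11.3% in the control and 30.1% against 24.7% in the Cd4cre library, and the highest single cells among the others had 514 and 708 UMIs against 80 and 196 among members. Among the interferons themselves, the 20 type I and III genes had 1 UMI in all 469 members, of Ifnz. Ifng, the type II interferon, had 86 UMIs in 31 control members and 168 in 53 Cd4cre members, or 66.7 and 86.9 CPM against 41.5 and 96.4 in the others, and with lineage and depth matched its log2 ratios were -0.18 and -0.16. The lineage call used for that matching itself reads Ifng for Th1, so the matched ratios are not independent of it.

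Outside the interferon lists, the 15 genes with the highest ratios were led by Mov10, an RNA helicase, at 55.8 and 57.4 CPM against 10.5 and 11.5, and Trafd1, a feedback inhibitor of innate signalling, at 236 and 219 against 42.9 and 50.9. Samd9l, a restriction factor gene, was at 62.0 and 90.0 CPM against 16.5 and 24.8. Nampt, the rate-limiting enzyme of NAD salvage, was at 70.5 and 90.5 CPM against 20.3 and 26.1, and Slc25a22, a mitochondrial glutamate carrier, at 67.4 and 47.6 against 15.9 and 15.5. Cd274, which encodes the checkpoint ligand PD-L1, was at 82.9 and 78.6 CPM against 25.4 and 31.0, log2 ratios of 1.71 (1.40 to 2.00) and 1.34 (1.08 to 1.60), and was the only 1 of 15 checkpoint and costimulation genes past 2-fold in both libraries. Ccrl2, which binds chemerin without signalling, was at 123 and 142 CPM against 27.8 and 44.9, and Setdb2, a histone methyltransferase gene, at 55.0 and 41.9 against 13.4 and 13.7. The other 7 genes, Ehd4, Aftph, Tmem184b, Usp25, Naa20, Pcgf5 and Mitd1, had log2 ratios between 1.27 and 2.07.

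Other lists held few genes past 2-fold, as did all measured genes (1.88% higher and 0.385% lower in both libraries), so nothing is read from these counts. Of 22 activation genes none reached 2-fold in either direction in both libraries, with medians of 0.05 and -0.05, although Cd69, an early activation marker that interferon also induces, was at 565 and 577 CPM against 402 and 439. Of 12 residence and egress genes none did either. Among 16 apoptosis and survival genes only Casp4, which binds cytosolic lipopolysaccharide, passed 2-fold in both, at 62.0 and 85.8 CPM against 27.9 and 38.6, with Casp8 at 129 and 125 against 72.2 and 70.4. Of 28 measured genes of the NRF2 list none passed 2-fold in both, with medians of -0.16 and -0.04. Keap1, which holds NRF2 in the cytoplasm, was at 73.6 and 72.4 CPM against 44.9 and 42.2.

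Several helper cytokine mRNAs were lower in members. Of 15 measured cytokine genes, 11 lay below the other T cells in both libraries, as did 4014 of all 9084 measured genes. Il4, Il5, Il13 and Il21 were at least 2-fold lower in both, against 0.385% of all genes. For Il21 this rests on only 9 UMIs in 7 control members and 10 UMIs in 8 Cd4cre members. Il5, which sustains eosinophils, stood at 41.9 and 15.5 CPM against 123 and 102, log2 ratios of -1.55 (-1.97 to -1.17) and -2.71 (-3.28 to -2.19). Il4, which drives the Th2 lineage and class switching, was at 27.9 and 26.4 CPM against 136 and 75.9, and Il13, which drives mucus and airway reactivity, at 442 and 212 against 1143 and 758. Th2 cells, the main source of these RNAs, were 13.9% and 12.2% of members and 28.2% and 19.5% of the others. With lineage and depth matched, the ratios were -0.72 and -2.09 for Il5, -1.58 and -0.90 for Il4 and -0.66 and -1.28 for Il13. The lineage call itself reads Il4, Il5 and Il13 for Th2 and Il17a for Th17. Neither the Th2 shares nor the matched ratios are therefore independent of those RNAs. Il17a was at 639 and 191 CPM against 1007 and 782, and Areg, an epidermal growth factor family ligand, at 881 and 457 against 1304 and 987; matched, Areg stood at -0.12 in the control and -1.03 in the Cd4cre library. Il10 was at 253 and 155 CPM against 241 and 214, so its sign differed between the libraries. Tgfb1 was lower in the members of both libraries by less than 2-fold, at 309 and 301 CPM against 384 and 340.

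**Figure D4:**
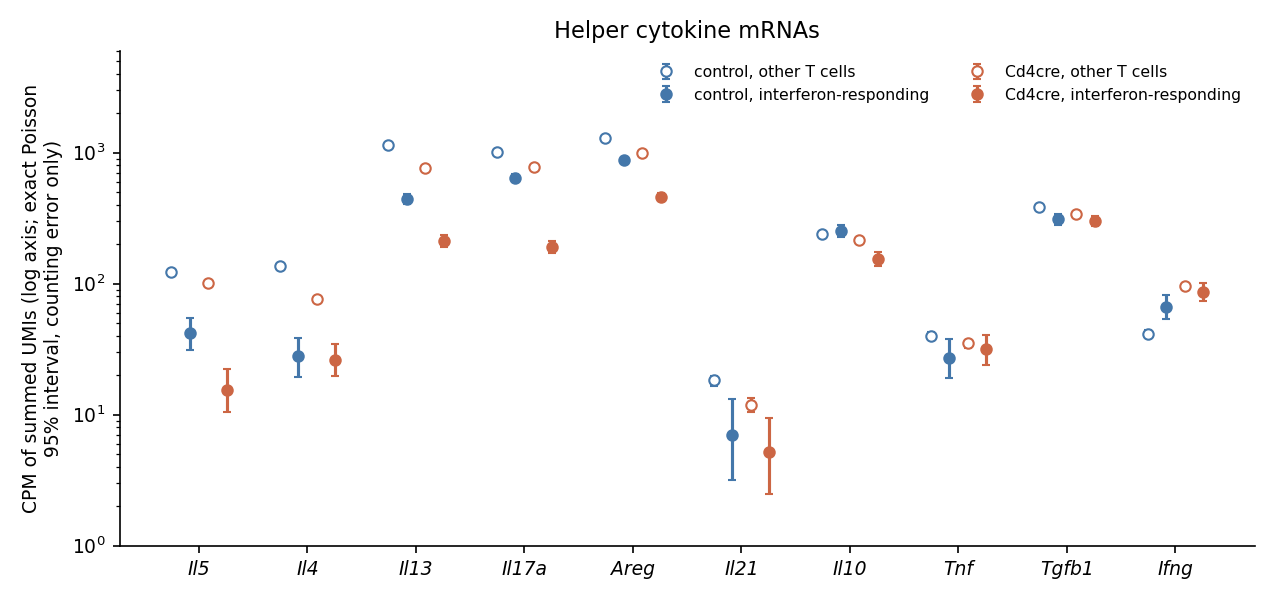
CPM of 10 helper cytokine genes (log axis) in members (filled) and other T cells (open) of the control (blue) and Cd4cre (orange) library, with exact Poisson intervals for counting error. Il5, Il4, Il13 and Il21 are lower in the members of both libraries, while Il10 and Ifng were at or above the others in the control library.

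Among the other genes with the lowest ratios, Nop58 and Nhp2, core proteins of the small nucleolar particles that modify ribosomal RNA, were at 27.9 and 31.0 CPM against 55.1 and 57.6, and at 41.1 and 40.9 against 73.5 and 70.8. Nme1, a nucleoside diphosphate kinase, was at 209 and 168 CPM against 354 and 287, log2 ratios of -0.77 (-0.95 to -0.59) and -0.77 (-0.94 to -0.61). C1qbp, a mitochondrial protein gene, had -1.18 and -0.65. Pparg, a nuclear receptor used by lung Th2 cells, was at 36.4 and 15.0 CPM against 58.7 and 34.7. Ltb4r1, the leukotriene B4 receptor, had ratios of -1.25 and -0.72, and Tox2 of -0.73 and -0.92. Il1r2, a decoy receptor for IL-1, was at 127 and 144 CPM against 254 and 228. Angptl2, Vdr and Gsn had ratios between -0.66 and -0.93.

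The members came from every helper lineage, in unequal shares. T cells were sorted by a gate on UMIs: a cell with a UMI of Foxp3 was called Treg, and the rest were assigned to Th2, Th1, Th17 or naive and central memory by the lineage with the most detected markers, with at least 2 required. Of the control members 33 (19.1%) were Treg, 24 (13.9%) Th2, 48 (27.7%) Th1, 7 Th17 and 16 naive or central memory. Of the Cd4cre members 91 (30.7%) were Treg, 36 (12.2%) Th2, 69 (23.3%) Th1, 12 Th17 and 38 naive or central memory, the rest being mixed or unassigned. The gate reads Gata3, Il1rl1, Il4, Il5 and Il13 among others for Th2. For Th1 it reads Ifng, Ccl5 and Cxcr3 among others. A cell with less of those RNAs is called less often.

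Th2 cells had a low share of members in both libraries, 2.07% in the control (24 of 1157, interval 1.33 to 3.07) and 4.76% in the Cd4cre library (36 of 757, 3.35 to 6.52). Th1 cells had 7.73% (48 of 621, 5.75 to 10.1) and 7.52% (69 of 918, 5.90 to 9.42), and the libraries differed by -0.21 points (-3.04 to 2.43). Treg cells had 5.75% (33 of 574, 3.99 to 7.98) and 11.4% (91 of 797, 9.29 to 13.8), a difference of 5.67 points (2.67 to 8.56). Naive or central memory cells had 2.55% and 7.55%, a difference of 5.003 points (2.47 to 7.82), and Th17 cells 2.15% and 4.71%, a difference of 2.56 points (-0.42 to 6.07). Ordered by share, control Th1 and Treg cells overlap in their intervals and both lie above Th2. In the Cd4cre library the Treg interval overlaps those of Th1 and naive cells and lies above that of Th2. Median depth was 7864 and 7618 UMIs for Th2 members and 5729 and 4819 for Th1 members. For the other cells it was 8046 and 7292 in Th2 and 5548 and 4868 in Th1. The part of depth in the order was not tested. After thinning to 2000 UMIs few members remained, and the lineage was called again on the thinned counts. Of the remaining members, 39 (52%) in the control and 50 (36.2%) in the Cd4cre library were unassigned. Before thinning these were 25 (14.45%) and 41 (13.85%). The classes therefore do not hold the same cells before and after thinning. Th1 cells then had 4.49% (19 of 423, 2.73 to 6.93) and 5.24% (40 of 763, 3.77 to 7.07), and Treg cells 0.995% (4 of 402, 0.272 to 2.53) and 4.20% (24 of 571, 2.71 to 6.19). Th2 cells had 0.556% (5 of 900, 0.181 to 1.29) and 0.842% (5 of 594, 0.274 to 1.95). Treg cells no longer stood above Th1 cells in the Cd4cre library, and control Treg and Th2 cells overlapped. The differences between the libraries after thinning were 3.21 points in Treg, 3.13 in naive or central memory, 0.29 (-0.60 to 1.44) in Th2 and 0.11 (-2.11 to 2.81) in Th17 cells.

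By clusters the Th2 difference was 1.21 points (-0.52 to 3.27). Clustering of the gated cells without the interferon genes gave the same order for Treg, Th1 and Th2, with 6.11% and 11.1%, 9.16% and 9.49%, and 1.95% and 3.16%. It differed for Th17. A cluster led by Il22 and Tmem176b had 9.09% (13 of 143) and 14.04% (32 of 228), while the cluster led by Il17a had 5.81% (25 of 430) and 3.14% (9 of 287). Th1 cells fell into 2 clusters as well. The one led by Gzmk, Ccl5 and Ly6c2, with the rule gene Ifit3 next in its leading genes, had 9.49% (24 of 253) and 12.6% (64 of 507). The one led by Gzma and S1pr5, found almost wholly in the Cd4cre library, had 0 of 9 and 1 of 178 (0.562%, interval 0.0142 to 3.09). The other T cells of these clusters in the Cd4cre library had medians of 4100 and 5217 UMIs, and the part of depth was not tested.

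**Figure D5:**
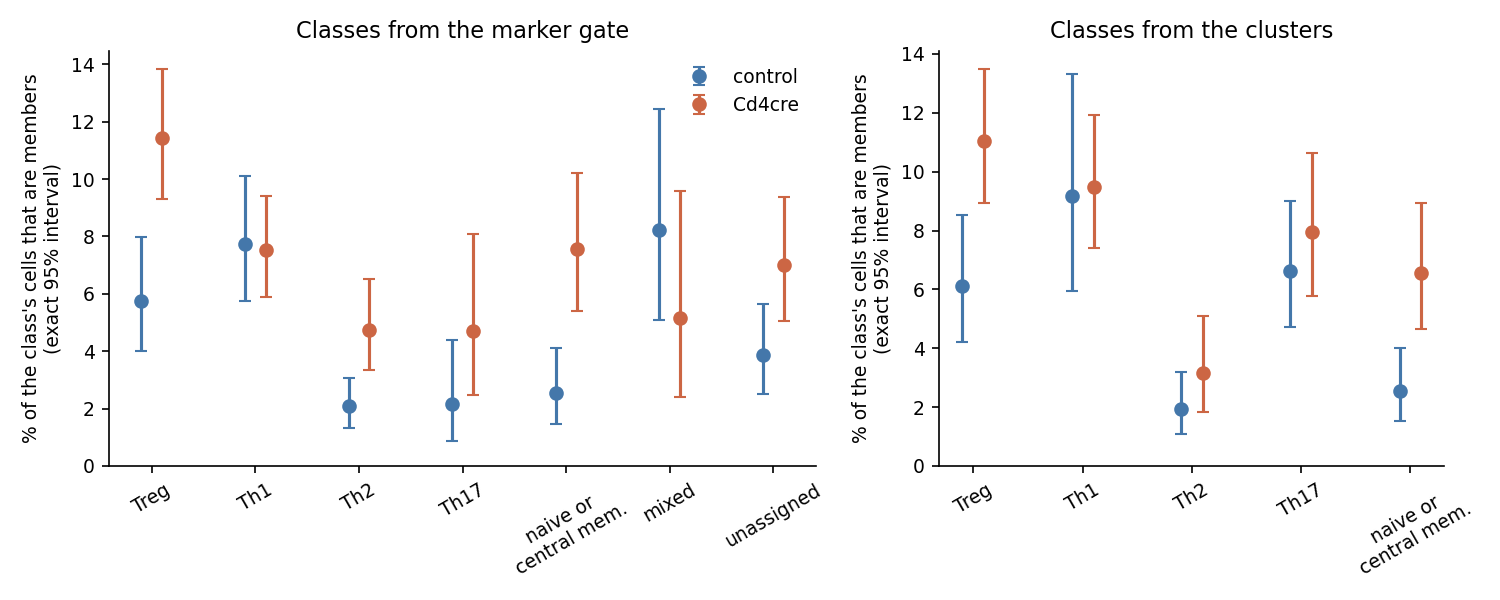
Share of each class's cells that are members (percent, with exact binomial intervals) in the control (blue) and Cd4cre (orange) library, for classes from the marker gate (left) and for 5 of the classes named from clusters (right). Treg cells stand at 5.75% and 11.4% by the gate and Th2 cells at 2.07% and 4.76%, while Th1 cells differ by -0.21 points between the libraries.

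The programme was present in each lineage with at least 20 members per library. The median log2 ratio of the 135 interferon genes, members over other cells of the same lineage, was 1.91 and 1.84 in Th2, 1.77 and 1.80 in Th1 and 1.38 and 1.28 in Treg cells. Isg15 was at 2104 and 1427 CPM in Th2 members against 101 and 139 in other Th2 cells. In Th1 members it was at 1953 and 2053 CPM against 147 and 185, and in Treg members at 1892 and 2124 against 226 and 292. The lower Treg ratio goes with a higher level in Treg cells that are not members, whose effector share had medians of 1.39% and 1.48%, against 0.799% and 0.931% in Th2 and 0.936% and 1.06% in Th1 cells.

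Levels within a class are shaped by its gate and are given as a description. The gate counts Gata3, Il1rl1, Il4, Il5 and Il13 for Th2, Ifng and Ccl5 for Th1, and Foxp3 for Treg. Gata3 was at 649 and 581 CPM in Th2 members and 619 and 632 in other Th2 cells, and Il1rl1, the receptor for IL-33, at 327 and 371 against 272 and 324. Il13 was at 805 (687 to 938) and 1111 (993 to 1239) CPM in members and 2806 and 2615 in the others, Il4 at 78.1 and 113 against 326 and 264, and Il5 at 215 and 103 against 317 and 384. These rest on 24 and 36 Th2 members. In Treg members Foxp3 was at 596 and 666 CPM against 596 and 569, and Il10 at 348 and 222 against 294 and 302. In Th1 members Ifng was at 208 and 367 CPM against 228 and 395, and Ccl5 at 859 and 5197 against 2792 and 10900.

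Members of both libraries had to pass the same threshold, so the comparison of their interferon levels between the libraries is a description. That threshold sets only a floor. Among the 6 rule genes the log2 ratio, Cd4cre over control members, ran from -0.04 (Isg20) to 0.72 (Ifit3b). The median log2 ratio of the 135 genes, Cd4cre members over control members, was 0.10, with 96 genes higher and 39 lower. All 9084 measured genes had a median of 0.00, with 4570 higher and 4514 lower. After thinning to 2000 UMIs, the median over the 81 interferon genes then measured was -0.0052. Isg15 was at 2134 CPM in control and 2007 in Cd4cre members, a log2 ratio of -0.09 (-0.16 to -0.02), and Bst2 at 973 and 957. Ifi27l2a was at 6115 and 8330 CPM, a log2 ratio of 0.45 (0.41 to 0.48). Ly6a was lower in Cd4cre members, at 1701 against 2816 CPM, and H2-Q7 higher, at 970 against 556. Among the other T cells the same 135 genes had a median of 0.19 with 115 higher in the Cd4cre library, and in T cells with none of the 6 rule genes 0.16 with 101 higher, against -0.03 and -0.04 for all genes. Of all 9084 measured genes, 3773 and 3732 were higher in these 2 classes. In the T cells with none of the rule genes Rtp4 was at 17.2 and 29.4 CPM, Ifi27l2a at 1509 and 2338, and Irf7 at 53.5 and 71.2.

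Of the 9084 measured genes, 266 (2.93%) were at least 2-fold higher and 237 (2.61%) at least 2-fold lower in Cd4cre members; 3 and 1 of the 135 interferon genes were among them. Nfe2l2, the targeted gene, was higher in the library labelled Cd4cre, at 35.7 and 192 CPM in members (log2 2.43, 1.98 to 2.90) and 34.2 and 175 CPM in the other T cells. Which exons the Cre removes is not stated, so this level does not check the genotype, and every direction between the libraries rests on their labels. Several of the other large differences rested on few cells. Of the 701 Ccl1 UMIs in Cd4cre members (22 in control members), 631 lay in 1 cell, and of 97 Ccl24 UMIs 76 did. Of the 85 Ifitm1 UMIs in control members (21 in the other), 43 lay in 1 cell, and of 106 Ly6c1 UMIs in Cd4cre members 47 did.

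Spread over more cells were Ccl5, with 374 UMIs in 46 control members and 2546 in 89 Cd4cre members, Klrg1, an inhibitory receptor of effector and Treg cells, at 48.1 and 118 CPM, and Hopx, at 191 and 381 CPM. H2-Q6 was at 199 and 400 CPM and Arl5c at 32.6 and 71.4. The other T cells differed between the libraries in the same direction for these genes. Their log2 ratios, Cd4cre over control, were 2.55 for Ccl5 (2.18 in members), 0.94 for Klrg1 (1.3) and 0.88 for Hopx (1.00). For H2-Q6 the ratio was 0.88 (1.005 in members) and for Arl5c 0.43 (1.13). Gzma, a granule protease, was at 38.0 CPM in control and 105 in Cd4cre members, with 21.7 and 287 in the other T cells. Lower in Cd4cre members were Il17a (639 and 191 CPM), Il13 (442 and 212), Areg (881 and 457), Tff1, a mucosal trefoil peptide (115 and 25.3), Rftn1, a lipid raft protein (118 and 49.1), and the stress gene Ddit4 (239 and 123). Arhgap39 and Stmn1 were at 54.3 and 25.9, and at 61.2 and 30.5 CPM. These genes were lower in the other T cells of the Cd4cre library too, by less, with Stmn1 nearly level at -0.03. The other T cells' log2 ratios were -0.36 for Il17a (-1.74 in members), -0.59 for Il13 (-1.06) and -0.40 for Areg (-0.95). They were -0.41 for Tff1 (-2.19), -0.27 for Rftn1 (-1.26), -0.61 for Ddit4 (-0.96) and -0.22 for Arhgap39 (-1.07). Of the 824 Il17a UMIs in control members, 210 lay in 1 cell. Cxcl3, a neutrophil chemokine, had 229 UMIs in 11 control members, 66 of them in 1 cell, and 140 in 16 Cd4cre members, 55 of them in 1. The lineage makeup of the members differs between the libraries, and its part in these values was not tested.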

How the data were processed

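Per the labels, 2 libraries were made with droplet single-cell reagents, 1 per group. Cell Ranger 4.0.0 and build GRCm38 are named, per the submitters' processing notes, with no annotation release. The deposited matrices hold raw UMI counts per gene and barcode without normalization by the authors, and the other deposited files hold gene names and barcodes (unit other). The libraries hold 41391255 and 38744058 UMIs, and the members 1290348 and 1933998. Of 32285 feature IDs, 32158 were found in GENCODE mouse release M21; no value from a column without a sample was used.

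Groups came from the sample titles. For each class of cells, UMIs were added up within a library. A gene was measured if at least 5 UMIs were expected among the members of each library. The 2-fold calls use sums with 1 UMI added. Intervals are at 95%: Clopper-Pearson for shares, Newcombe for differences of shares, exact Poisson for CPM, exact conditional binomial for ratios. The calculation was tested on simulated data. Scrublet scores (scanpy 1.11.5) were used only in an alternative that removed the highest-scoring cells (4.58% and 5.45% of the gated T cells). Doublets must otherwise be taken as present. Clusters came from Leiden without interferon genes.

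The members and gene lists were chosen with earlier results of these data known. Named outside the lists were the 15 highest and 15 lowest genes by the smaller of the 2 libraries' ratios, at 50 CPM or more and without TCR, immunoglobulin, mitochondrial, ribosomal, sex-linked and unnamed genes; between libraries the 10 highest and 10 lowest with 10 CPM added; and of each list the leading genes by UMIs and by ratio. Genes named outside this rule, such as Ifi27, Ifitm2 and Cldn5, and the clusters described, were chosen after their values were seen.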

Additional observations from a re-analysis of the deposited data

Results flagged for a closer look

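Several genes differed in opposite directions from the other T cells in the 2 libraries, each with an interval for counting error on its own side of 0; the difference itself was not tested, because each group is 1 library. Ccl1 had log2 ratios of -2.19 in control and 1.92 in Cd4cre members, 631 of the 701 UMIs of the latter lying in 1 cell. Ly6c1 had -0.77 and 2.17, with 47 of 106 UMIs in 1 cell. Csf2 had -1.82 and 1.71, on 3 UMIs in control members and 54 in 6 Cd4cre members. Il22 had 0 UMIs in control members and a ratio of 1.37 in Cd4cre members, on 70 UMIs in 8 cells. Gzma had 0.81 and -1.45 and Rftn1 0.26 and -0.72. Junb had 0.10 and -0.10, Nr4a1 0.13 and -0.15, and Rgs1 0.12 and -0.17.

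Rule genes were also found in cells outside the T cell gate. Of cells with no CD3 UMI and at least 5 Lyz2 UMIs, 52 of 768 (6.77%, interval 5.10 to 8.79) in the Cd4cre library had at least 3 rule genes, against 4 of 232 (1.72%, 0.472 to 4.36) in the control, at median depths of 3570 and 2780 UMIs. Ifnb1, which encodes interferon beta, had 187 UMIs in 61 barcodes of the Cd4cre library, 48 of them in 1 cell, and 18 UMIs in 15 barcodes of the control. Of those barcodes, 53 and 11 had a Lyz2 UMI, and 0 and 1 were gated T cells. The libraries differ in size and makeup, with 6808 barcodes in the Cd4cre library and 5729 in the control. Before the filters on genes and mitochondrial UMIs, 802 Cd4cre and 266 control barcodes had at least 5 Lyz2 UMIs and no CD3 UMI. Among these, 35 and 8 had an Ifnb1 UMI.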

How the results depend on the processing

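No paired analysis was possible because the groups are 1 library each. The difference in member share stayed above 0 in all 9 alternatives. It was 6.53 points with at least 2 rule genes, 1.92 with at least 4, 1.72 after thinning to 2000 UMIs and 2.03 without Isg20. The mean of the 2 libraries' median ratios of interferon genes was 1.73 and lay between 1.47 and 2.06, the latter against other T cells with none of the rule genes. Genes at least 2-fold higher numbered 171, but 91 after thinning and 99 with at least 20 expected UMIs, which test fewer genes; those 2-fold lower numbered 35, but 23 with median-of-ratios scaling and 11 with at least 20 expected UMIs. The library difference of the members' interferon genes (0.10) was -0.0052 after thinning, 0.042 as a mean over cells and 0.067 at equal lineage shares, so its direction is not settled. The Th1 difference (-0.21 points) was 0.33 with clusters and 0.75 after thinning, and after thinning the Th2 difference (2.68) was 0.29, that of Th17 (2.56) 0.11, of Treg (5.67) 3.21 and of naive cells (5.003) 3.13. Thinning also changed the lineage calls, which were made again on the thinned counts, and the cause of these shifts was not tested. The rule without Isg20 and the removal of clusters 10 and 12, led by class II and stromal genes, were chosen after seeing the data. Depth limits single genes within lineages, where 24 to 91 members remain.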

Other observations

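The members used many T cell receptor beta chains. A Trbv segment was read in 159 control and 273 Cd4cre members, and 17 and 20 of the 35 segments in the files were each the leading segment of at least 1 member. Trbv3 was the most used, in 14.5% of control members (23 cells, interval 9.40 to 20.9) and 13.6% of Cd4cre members (37 cells, 9.73 to 18.2). The widest gap to the other T cells of the same library was 5.41 points, for Trbv13-1 in the control library, and 4.58 points, for Trbv1 in the Cd4cre library.

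Cycling CD3+ cells, which the rule leaves out, met the rule for the 6 genes in 18 of 593 control cells (3.04%, interval 1.81 to 4.76) and 28 of 419 Cd4cre cells (6.68%, 4.49 to 9.51). Of 170 and 245 CD3+ cells with a Lyz2 UMI, which may hold 2 cells or free RNA, 1 and 19 did.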
